A study of Mus musculus with 7 samples.

Results

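The nuclear genes of respiratory chain complexes I, III and IV and of ATP synthase (complex V) were examined for open chromatin in mouse intestinal stem cells. They were chosen by symbol alone, as the protein-coding genes of the RefSeq table (GRCm38.p6, the build also called mm10) whose symbols begin with Nduf, Uqcr, Atp5 or Cox4 to Cox8. On chromosomes 1 to 19 and X this gave 92 of 21631 genes, spread over 19 chromosomes. Complex I accounted for 47 of them, complex III for 8, complex IV for 20 and complex V for 17. Ndufa4 and its paralogue Ndufa4l2 were counted with complex IV, where the Ndufa4 protein is now placed.

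Omni-ATAC-seq, in which the transposase Tn5 inserts adapters into accessible DNA, was done on Lgr5+ cells. Lgr5 marks the stem cells at the crypt base, and the cells were sorted by the GFP that the B6-GFP-Lgr5 strain carries at this marker. All recipients were females of this strain, 8 to 12 weeks of age, and all were lethally irradiated and given bone marrow 7 days before the sort. The syngeneic group (Syn, 3 libraries) had marrow matched to the B6-GFP-Lgr5 recipients, and the allogeneic group (Allo, 4 libraries) had marrow of the mismatched BALB/c strain. Each library is a separate sort of 50000 cells for which tissue of 3 to 4 animals was combined, so spread between single animals was not measured. No group without irradiation is included.

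The respiratory chain passes electrons from NADH through complex I (NADH dehydrogenase), complex III (cytochrome bc1) and complex IV (cytochrome c oxidase) to oxygen, and pumps protons across the inner mitochondrial membrane. ATP synthase uses that proton gradient to make ATP. Most subunits are encoded in the nucleus, often from CpG-rich promoters with sites for NRF1, for the ETS factor GABP and for YY1, and intestinal stem cells are known for active oxidative metabolism.

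The deposited data are 1 list of peaks per library, with 71925, 73668 and 76438 peaks in Syn 1 to 3 and 62977, 76091, 88861 and 81719 in Allo 1 to 4. Read depth is unknown, so ranks within a library were compared and not peak heights. Allo 3 and 4 differ from the other lists in how their peaks are named, and results are also given without these 2. All 5 stem cell markers (Lgr5, Olfm4, Ascl2, Smoc2, Axin2) had a peak in every library. So did 2 of 2 markers each of Paneth, goblet, tuft and enterocyte cells and of stroma. For enteroendocrine and endothelial cells it was 1 of 2 each, so the presence of a peak does not tell these cell types apart. Of 10 markers of immune cells, 5 had no peak in any library, among them Cd3e, Cd3d, Cd3g and Cd8a of T cells. The 3 with a peak in all 7 were Cd4 of T cells, Cd79a of B cells and Csf1r of myeloid cells. Ptprc, the pan-leukocyte gene, had 3 peaks in Allo 3 and 1 in Allo 4 and none elsewhere. Summed over the 10 immune markers, peaks numbered 3 to 4 in the Syn and 4 to 7 in the Allo libraries, and their part in the results below was not tested.

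Start positions were known for 75 of the 92 genes, from RefSeq promoter windows of the same build, and 17 had none. Each window runs from 250 bases before to 50 after an annotated start. Those of 7 genes are printed here, 5′ to 3′ on the strand of the gene. Atp5e and Ndufv1 are the members with the strongest peaks. Cox8a and Cox8b encode the ubiquitous and the muscle form of the same subunit, and are open and closed, respectively. Ndufa4 and Atp5g2 had the largest differences among members whose groups did not overlap, lower and higher in Allo, and Ndufs3 has a region that passed the test below. Capitals mark matches, on either strand, to any of 5 motifs. The NRF1 half-site was searched as TGCGCA and the ETS motif as CCGGAAG. The YY1 motif was searched as AAGATGG, the SP1 motif as GGGCGG and the core promoter element bound by TBP as TATAAA.
Atp5e, chr2:174464052-174464351, minus strand: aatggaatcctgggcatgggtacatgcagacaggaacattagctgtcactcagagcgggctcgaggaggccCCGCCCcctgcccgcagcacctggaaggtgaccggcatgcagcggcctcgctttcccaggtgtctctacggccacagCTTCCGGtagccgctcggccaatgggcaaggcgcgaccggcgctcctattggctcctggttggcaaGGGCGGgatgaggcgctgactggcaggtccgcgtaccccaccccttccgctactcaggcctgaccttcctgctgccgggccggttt
Ndufv1, chr19:4012706-4013005, minus strand: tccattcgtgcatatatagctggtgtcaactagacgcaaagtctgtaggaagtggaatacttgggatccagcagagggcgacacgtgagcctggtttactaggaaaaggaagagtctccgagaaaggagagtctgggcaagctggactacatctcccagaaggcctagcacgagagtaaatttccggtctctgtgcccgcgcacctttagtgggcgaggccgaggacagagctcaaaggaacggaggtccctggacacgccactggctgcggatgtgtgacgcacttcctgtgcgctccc
Cox8a, chr19:7217567-7217866, minus strand: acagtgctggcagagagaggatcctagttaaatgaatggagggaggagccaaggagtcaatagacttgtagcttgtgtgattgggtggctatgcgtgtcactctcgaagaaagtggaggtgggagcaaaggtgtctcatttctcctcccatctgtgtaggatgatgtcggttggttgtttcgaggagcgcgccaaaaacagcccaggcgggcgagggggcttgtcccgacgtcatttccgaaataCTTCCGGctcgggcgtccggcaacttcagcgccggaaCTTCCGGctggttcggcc
Cox8b, chr7:140900397-140900696, minus strand: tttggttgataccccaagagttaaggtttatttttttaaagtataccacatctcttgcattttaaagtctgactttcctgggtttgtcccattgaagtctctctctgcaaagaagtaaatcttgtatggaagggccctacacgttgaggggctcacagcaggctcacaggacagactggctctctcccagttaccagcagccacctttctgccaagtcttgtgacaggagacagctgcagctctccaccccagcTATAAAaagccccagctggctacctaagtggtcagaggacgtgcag
Ndufa4, chr6:11907401-11907700, minus strand: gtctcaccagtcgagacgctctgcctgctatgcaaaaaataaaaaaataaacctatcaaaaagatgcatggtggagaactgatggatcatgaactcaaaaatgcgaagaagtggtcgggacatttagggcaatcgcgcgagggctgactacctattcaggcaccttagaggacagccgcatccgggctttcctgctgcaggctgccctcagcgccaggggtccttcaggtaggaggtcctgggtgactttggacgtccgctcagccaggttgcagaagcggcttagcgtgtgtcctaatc
Atp5g2, chr15:102670998-102671297, minus strand: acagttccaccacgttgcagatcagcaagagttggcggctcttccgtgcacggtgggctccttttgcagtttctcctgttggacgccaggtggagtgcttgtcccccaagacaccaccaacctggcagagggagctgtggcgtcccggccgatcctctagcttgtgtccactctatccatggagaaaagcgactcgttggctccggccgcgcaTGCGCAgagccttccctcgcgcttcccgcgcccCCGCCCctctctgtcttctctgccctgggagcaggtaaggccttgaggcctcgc
Ndufs3, chr2:90904672-90904971, minus strand: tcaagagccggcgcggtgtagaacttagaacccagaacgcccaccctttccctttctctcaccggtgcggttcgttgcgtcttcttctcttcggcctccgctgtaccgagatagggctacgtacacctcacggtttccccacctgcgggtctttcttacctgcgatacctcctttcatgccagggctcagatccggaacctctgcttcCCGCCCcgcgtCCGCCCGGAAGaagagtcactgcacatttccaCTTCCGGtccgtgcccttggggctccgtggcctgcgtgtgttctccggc
Cox8a holds a pair of ETS matches around its start, whereas Cox8b holds no ETS match and has its only match, to the TATA box, just after the annotated start. Ndufs3 also has ETS matches on both sides of its start, the first of which overlaps an SP1 match. Ndufv1 and Ndufa4 hold none of the 5 motifs in this window. The ratio of observed to expected CpG was 0.842 for Cox8a and 0.115 for Cox8b, against a median of 0.833 over the 77 windows of members whose start was open in all libraries.

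Across these 77 windows, which come from 72 genes, TGCGCA was present in 23.4%, against 13.8% of the 12717 windows of all genes open at the start in all 7 libraries and 9.74% of all 21045 windows. CCGGAAG was present in 22.1%, against 17.5% and 11.7% in the same 2 sets. AAGATGG was found in 15.6%, against 6.82% and 6.28%. The order was the other way for GGGCGG, with 42.9% of the members' windows against 64.7% of all windows with an open start and 46.7% of all windows. TATAAA was found in 9.09%, more than the 6.92% of all open windows and less than the 12.7% of all windows. The median GC content of the members' open windows was 58.3%, below the 61.3% of all open windows, while their CpG ratio was higher, at 0.833 against 0.760. These are counts of letters, and binding was not measured.

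**Figure D1:**
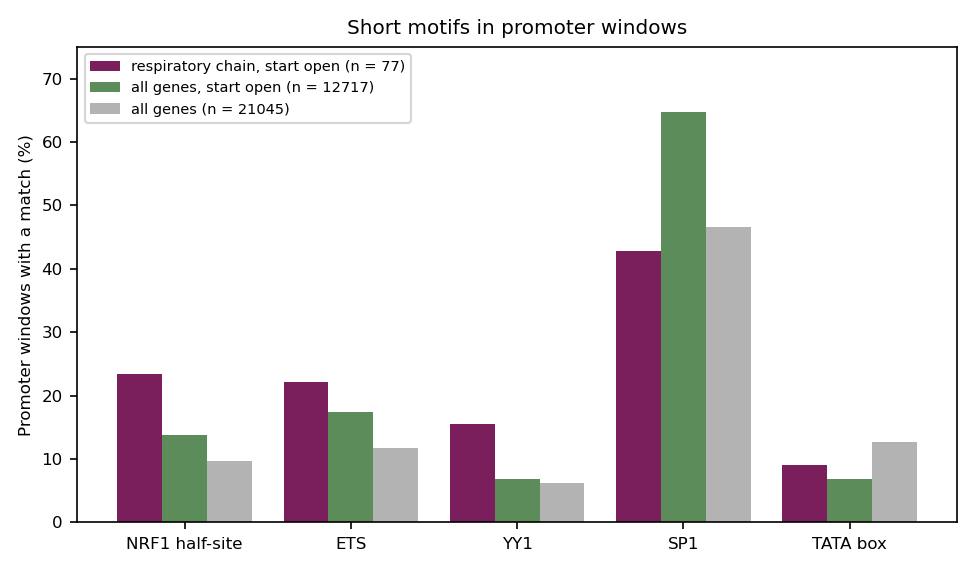
Share of promoter windows (in percent, from 250 bases before to 50 after a start) that hold each motif on either strand, for respiratory chain genes with an open start, all genes with an open start and all genes. The respiratory chain bar is highest for the NRF1 half-site (23.4%), ETS (22.1%) and YY1 (15.6%), and lowest of the 3 for SP1 (42.9%).

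Respiratory chain genes were either open in every library or in none. A gene counted as open where a peak overlapped the 1 kb on either side of a gene end or had its summit in the gene body. By this rule 85 of the 92 genes were open in all 7 libraries, 7 in none and 0 in some, and each library held the same 85. Of all protein-coding genes, 69.9% were open in all 7 libraries, 23.4% in none and 1433 genes in some. No member was open in 1 group only, where the background is 0.148% of all genes for Allo and 0.0786% for Syn. With gene ends alone, 82 members were open in all 7. All 8 genes of complex III and all 17 of complex V were open, as were 45 of 47 of complex I and 15 of 20 of complex IV.

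The closed genes were isoforms of other tissues and gene copies. Complex IV contains subunits with isoforms made in particular tissues or states, and 5 of the 8 such genes had no peak. They were Cox4i2, the isoform induced by low oxygen and known from lung, Cox6a2 and Cox8b of heart and skeletal muscle, and Cox7b2 and Cox8c, known from testis. The ubiquitous partners Cox4i1, Cox6a1, Cox7b and Cox8a were open in all 7 libraries. The 3 open isoform genes were Cox7a1, the muscle form of subunit 7a, Cox6b2, the testis form of subunit 6b, and Ndufa4l2, a hypoxia-induced paralogue of Ndufa4. At Cox7a1 the median summit of the strongest peak lay 83 bp before the start. In Allo 2, however, the strongest peak lay at the far end of the gene, within 1 kb of an end of Capns1. In complex I, Ndufb4b and Ndufb4c had no peak. They are named as copies of Ndufb4, and the handling of reads that match several copies is unknown here, so their absence is uncertain.

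Open chromatin at these genes sat at the start. A peak covered an annotated start in all 7 libraries for 72 of the 75 members with a known start (96.0%). It did so in none for Cox7b2, Cox8b and Ndufb4b. Over all genes it was 9908 of 17274 (57.4%). The summit of the best peak, the one with the highest −log10 q value, lay within 250 bp of the start in 59 of 72 members, with a median distance of 64 bp. The best peaks were 1086 bp wide in the median. For 82 of the 85 open genes the best peak fell in the same merged region in every library, where a merged region joins peaks of all libraries that overlap by at least 1 bp.

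Many of these starts face the start of another gene. A start on the opposite strand within 1 kb was found for 22 of 75 members (29.3%), against 9.73% of the 17274 genes with a known start. Ndufa4 shares its open region with Phf14 and Ndufs3 with Kbtbd4. At 36 members the best peak lay within 1 kb of an end of another protein-coding gene, so its value cannot be assigned to the member alone.

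Strength was measured as the gene rank percentile. In each library the best −log10 q of a gene was ranked among the 15128 genes open in all 7 libraries, so that 100 is the strongest and 50 the middle. The number of ranks is the same in every library, so the length of a list does not set the value. The median over the 85 open members was 57.7, 60.9 and 59.4 in Syn 1 to 3 and 59.8, 59.8, 62.1 and 59.3 in Allo 1 to 4. Among all peaks of a library, the best peaks of members had median percentiles between 90.8 and 93.9, and those of all open genes between 87.9 and 91.3. Over members the mean of the 7 libraries ranged from 8.17 (Cox7b) to 99.2 (Ndufv1). It ran from 11.9 to 99.2 in complex I, 35.4 to 88.2 in III, 8.17 to 94.6 in IV and 13.0 to 98.8 in V. The genes of a single complex thus did not share a level. The SD of a member over the 7 libraries was 6.01 points in the median.

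The core subunits of complex I, which carry the flavin, the iron-sulphur clusters and the quinone site, stood highest, with a median of 80.4 over 7 genes. Ndufv1, which binds FMN and oxidises NADH, had 98.4, 98.7 and 98.7 in Syn and 99.7, 99.8, 99.6 and 99.3 in Allo. These values are near the top of the scale in every library. Ndufs8, an iron-sulphur subunit next to the quinone site, was at 93.7 ± 1.72 in Syn (SD, n = 3) and 92.1 ± 1.19 in Allo (SD, n = 4). Lowest of the core were Ndufs1, the largest iron-sulphur subunit, with a mean of 44.6, and Ndufs7 with 41.1.

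The 30 accessory subunits of complex I had a lower median of 52.7 and ranged from 15.5 (Ndufb10) to 90.8 (Ndufa2). The 8 Ndufaf assembly factors, which help to build the complex and are no part of it, had a median of 58.9. They ranged from 11.9 for Ndufaf1 to 93.3 for Ndufaf7, a mitochondrial methyltransferase. Ndufaf7 had 98.8, 97.9 and 97.4 in Syn and 76.0, 95.3, 89.3 and 98.3 in Allo. Allo 1 was lowest there, and Allo 4 lay among the Syn libraries.

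Complex III had a median of 66.0. Uqcrq, a small subunit, was highest with a mean of 88.2, and Uqcrh, the hinge protein at cytochrome c1, lowest with 35.4. Uqcrfs1, the Rieske iron-sulphur protein, had 78.3, 58.1 and 75.6 in Syn and 64.5, 90.7, 69.0 and 84.4 in Allo. Uqcrc1, a core protein of the matrix side, had 61.3, 82.8 and 66.1 in Syn and 78.8, 78.1, 71.5 and 77.6 in Allo. The groups overlapped at both genes.

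Complex IV had a median of 52.4 over its 15 open genes. Cox8a was the strongest, at 94.4 ± 4.02 in Syn (SD, n = 3) and 94.7 ± 1.66 in Allo (SD, n = 4). Cox7a2, the ubiquitous form of subunit 7a, had a mean of 85.9, above its muscle isoform Cox7a1 at 43.6 and above Cox7a2l, a supercomplex assembly factor, at 67.9. Cox6b1 had a mean of 49.2 and its testis isoform Cox6b2 one of 20.9. Cox4i1, a large regulatory subunit, was at 50.4, Cox5a at 52.4 and Cox6a1 at 59.7. The weakest were Cox6c with 12.3 and Cox7b with 8.17. Of the latter the best peak was not at the start: it lay in the gene body, 1599 bp past the start. The 3 open tissue isoforms had a median of 21.7, with Ndufa4l2 at this value.

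Complex V had a median of 66.4. Atp5e, the epsilon subunit of the central stalk, had 98.5, 99.6 and 99.1 in Syn and 95.7, 99.7, 99.4 and 99.8 in Allo. It was near the top in every library, and lowest in Allo 1. The genes Atp5g1, Atp5g2 and Atp5g3 encode the same mature protein, the c subunit of the membrane rotor, yet their means were 95.0, 65.3 and 45.5. The catalytic beta subunit gene Atp5b was at 70.3 ± 2.93 in Syn (SD, n = 3) and 70.4 ± 5.91 in Allo (SD, n = 4). Its alpha partner Atp5a1 had a mean of 44.5. Atp5d, the delta subunit of the stalk, was at 29.6 and Atp5l, subunit g of the membrane part, at 13.0.

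**Figure D2:**
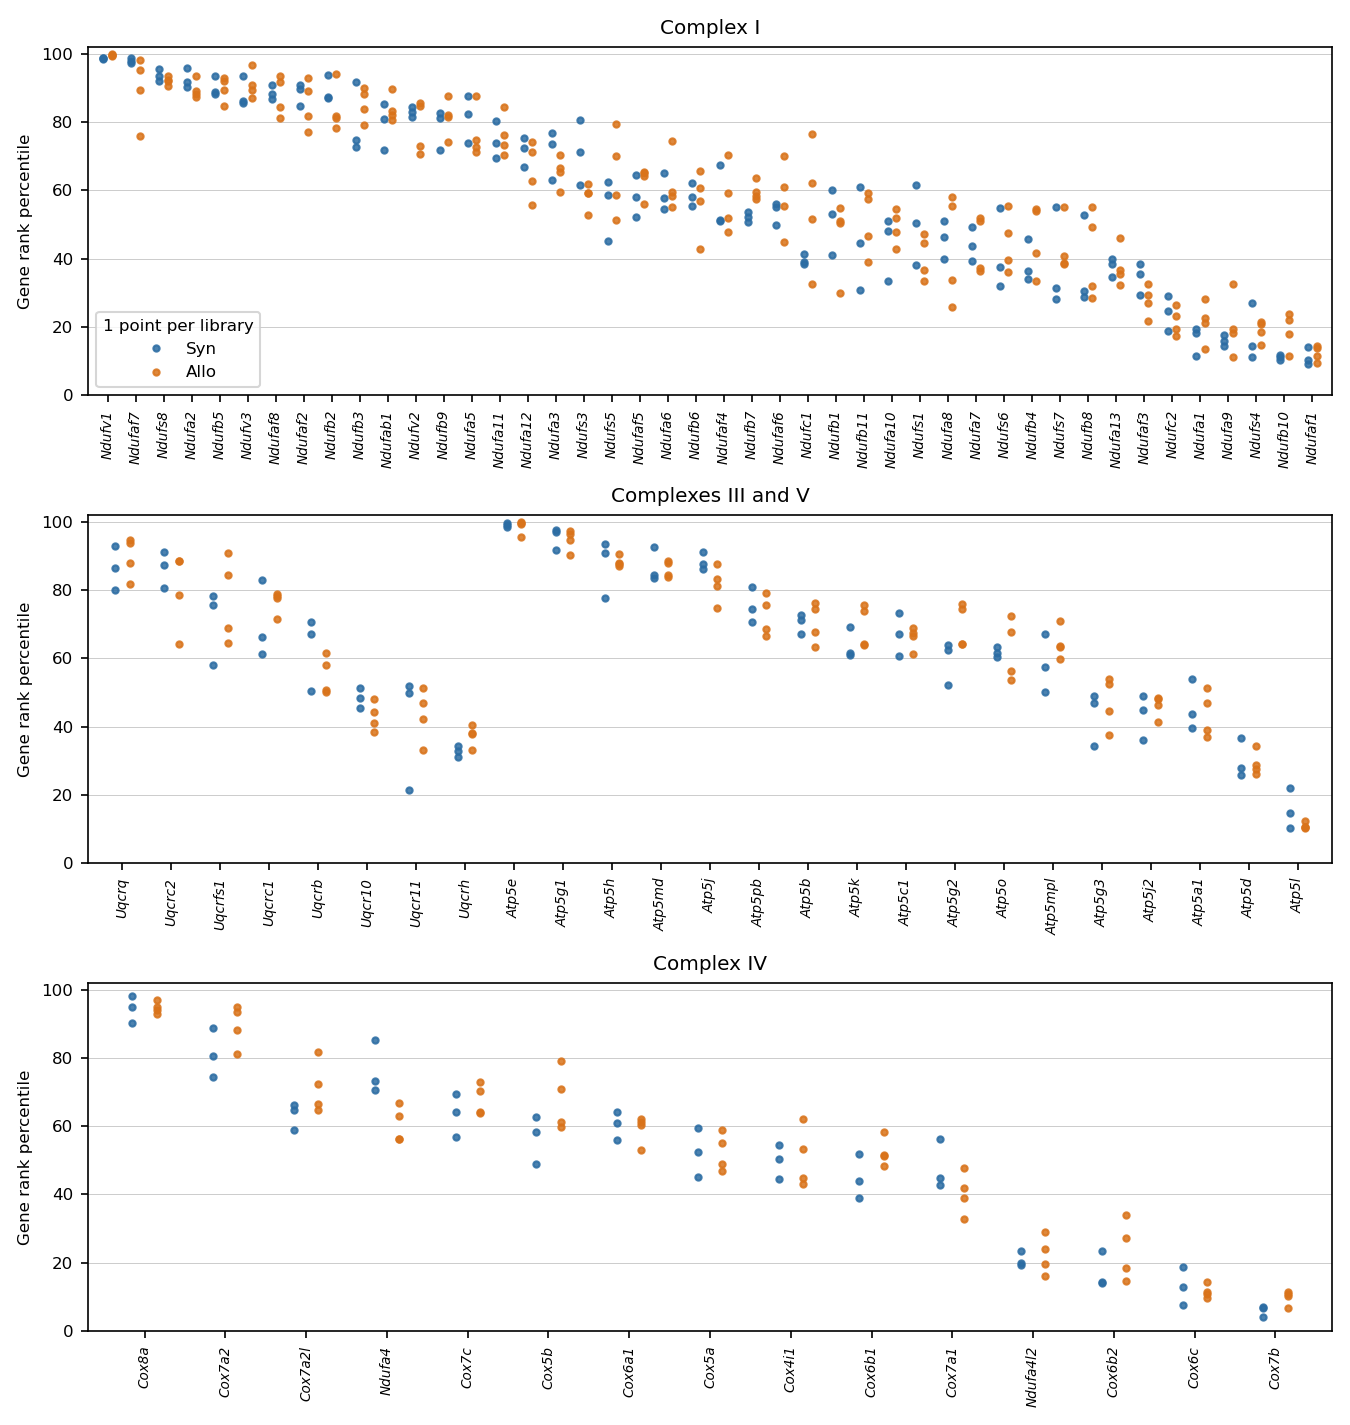
Gene rank percentile (vertical axis, 0 to 100) of the open respiratory chain genes (85, of which 1 is not drawn), with 1 point per library, Syn in blue and Allo in orange, ordered by mean within each complex. Levels run from 8.17 (Cox7b) to 99.2 (Ndufv1), and the points of both groups overlap at most genes.

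No respiratory chain gene passed the test between Allo and Syn. The gene rank percentile was compared with limma over all 15128 genes, with Benjamini-Hochberg adjustment at 0.05. It called 0 genes in all (0.00%), and so 0 of 85 members, with a lowest adjusted p among members of 0.241. At an unadjusted p under 0.05 there were 4 members (4.71%), against 11.9% of all genes. They were Ndufa4 and Ndufs3, lower in Allo (background 6.39%), and Ndufb7 and Ndufb10, higher (background 5.53%). The median difference, Allo minus Syn, was 0.98 percentile points over members and 0.10 over all genes, with 50 members above 0 and 35 below. Over all genes, 7705 lay above 0 and 7423 below. A difference of more than 10 points was seen in 5 members (5.88%), against 11.5% of all genes. The median standard error of a member's difference was 4.15 points, and a missed threshold does not show that the groups were alike.

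By complex, the median difference was 0.98 for complex I, 2.67 for complex III, 1.30 for complex IV and -0.39 for complex V. It was -2.15 over the core subunits of complex I, where 5 of 7 genes lay below 0, and 2.71 over the accessory subunits, where 20 of 30 lay above 0. None of these medians was tested.

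In 3 members every Allo library lay above every Syn library, against 5.65% of all genes, and in 1 member every Allo library lay below, against 5.92%. The shares among members, 3.53% and 1.18%, are not above that background. Ranked among all peaks of a library, 6 members lay above and 2 below, and the background moved to 7.21% and 3.48%. Leaving out any 1 library gave 4 to 8 members above and 2 to 7 below, where the background was 7.46% to 10.2% above and 7.75% to 9.86% below. The counts were 10 and 9 without Allo 3 and 4, and 18 and 9 without Allo 1 and 2, where fewer libraries have to be separated and the background was 14.5% and 13.8% in the first case and 18.9% and 19.4% in the second.

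Ndufa4 was the member that was lower in Allo. It encodes a small subunit of cytochrome c oxidase, and the gene lies at chr6:11900372-11907450. Its values were 70.5, 85.2 and 73.3 in Syn and 66.8, 63.0, 56.3 and 56.2 in Allo. The highest Allo library was thus below the lowest Syn library by a few points, and Allo 3 and 4 were lowest. The means were 76.3 ± 7.77 (SD, n = 3) and 60.6 ± 5.21 (SD, n = 4), a difference of -15.7 with SE 4.40 (limma adjusted p = 0.241, not past the threshold). The sign was the same in 18 of 18 alternative settings, with a limma adjusted p between 0.135 and 0.581. Settings that only leave out libraries could hardly change the sign, because the groups do not overlap. The open region, chr6:11906911-11908106, has its summit 366 bp before the Ndufa4 start, toward the start of Phf14, so that the value cannot be given to either gene.

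Ndufb7, an accessory subunit of the membrane arm of complex I, was higher in Allo. It had 50.7, 53.8 and 52.2 in Syn and 63.7, 59.5, 57.4 and 58.3 in Allo, with no overlap and little spread within a group. The means were 52.2 ± 1.56 (SD, n = 3) and 59.7 ± 2.80 (SD, n = 4), a difference of 7.51 with SE 2.51 (limma adjusted p = 0.310). The sign held in 18 of 18 alternatives, of which those that only leave out libraries could hardly change it. Atp5g2 had 62.5, 63.8 and 52.1 in Syn and 74.4, 64.1, 64.2 and 75.8 in Allo. Its difference was 10.19 with SE 4.41 (limma adjusted p = 0.420), and it turned to -10.57 when peaks were ranked by their fold over background. Ndufv1, listed above, also separated the groups, by 0.98 points with SE 2.05 (limma adjusted p = 0.911), and its difference turned to -0.29 under the ranking by fold.

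Some larger differences came with overlap. Ndufc1, Cox5b, Ndufs3 and Ndufb10 are described because of their values. Ndufc1, an accessory subunit of complex I, had 38.6, 41.3 and 39.0 in Syn and 51.5, 32.6, 62.1 and 76.5 in Allo. The difference of 16.05 (SE 9.01, limma adjusted p = 0.539) was the highest of all members, but Allo 2 lay below all Syn libraries. Cox5b, a zinc-binding subunit of complex IV, had 49.0, 58.2 and 62.6 in Syn and 59.8, 61.1, 79.0 and 70.9 in Allo, with Allo 3 and 4 on top (difference 11.08, SE 5.43, limma adjusted p = 0.475). Ndufb10 had 11.2, 11.7 and 10.3 in Syn and 17.8, 11.6, 23.9 and 22.1 in Allo (difference 7.79, SE 3.31, limma adjusted p = 0.415), and only Allo 2 fell among the Syn values.

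**Figure D3:**
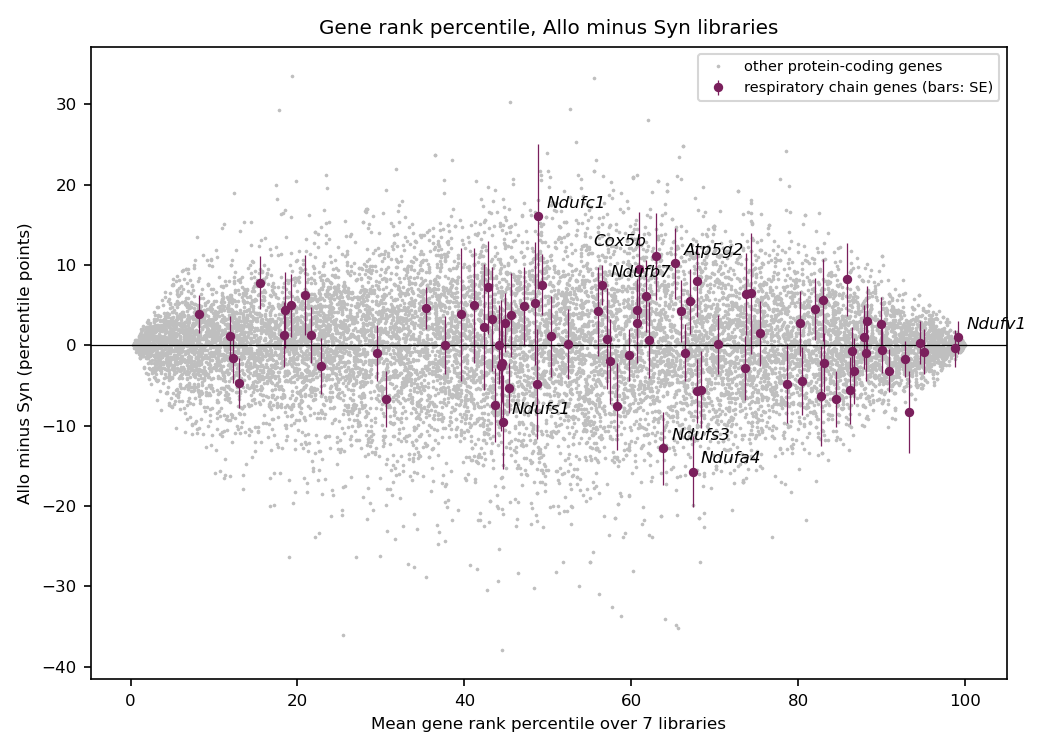
Difference in gene rank percentile (Allo minus Syn, percentile points) against the mean over the 7 libraries, for 85 respiratory chain genes (purple, bars are limma standard errors) and the other protein-coding genes (grey). Ndufa4 (-15.7) and Ndufc1 (16.1) mark the ends of the members' range, inside that of all genes, which runs from -38.0 to 33.6.

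Single open regions at these genes were then compared, a step added after the data had been seen. Merging gave 143 regions at the members, of which 108 (75.5%) were open in all 7 libraries, against 48.5% of all 103809 merged regions. They lay mostly at starts: 75 of 78 regions at a start were open in all 7, but 13 of 37 in gene bodies and 6 of 12 at the far end of the gene. Another 16 lay at a gene end, all but those of Atp5d and Cox5a in genes without a known start. Regions open in all libraries had a median width of 1226 bp, and the other 35 of 279 bp. Of these 35, 17 were seen in a single library, 10 of them in Allo 3, which has the longest list.

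A region open in all Allo and no Syn libraries was found at 1 member, against 1.14% of all merged regions, and none had the reverse pattern, against 1.01%. It lies in the body of Atp5l at chr9:44914760-44915112, 353 bp wide. Its percentiles among all peaks were 5.06, 25.3, 53.8 and 17.2 in Allo 1 to 4, so that it ranked low in 3 of the 4 libraries. It did not separate the groups when peaks needed a −log10 q of at least 5 or lists were cut to the shortest length. Without Allo 3 and 4, 3 of 133 member regions separated the groups (2.26%), against 4.81% of all regions. Without Allo 1 and 2 it was 2 of 141 (1.42%), against 9.12%.

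For the 50324 regions open in all libraries, a region rank percentile was formed by ranking them among themselves. limma called 928 of them (1.84%), 427 higher (0.849%) and 501 lower (0.996%) in Allo, and 2 of the 108 at members (1.85%), both higher in Allo. At an unadjusted p under 0.05 there were 10 at members (9.26%), against 19.2% of all, 6 higher and 4 lower. In 8 member regions every Allo library lay above every Syn library (background 8.41%) and in 6 below (background 8.86%). Counts at members are thus near or under those of all regions.

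The share with a low p differed by position. At starts, 2 of 75 member regions had an unadjusted limma p under 0.05, against 8.24% of the 10679 regions at any start. Elsewhere it was 8 of 33, against 22.1% of 39645. The sets are not defined alike. A member region was placed at a start if it lay within 1 kb of the member's own known start. A background region was placed there if it lay within 1 kb of the start of any gene. The 33 therefore include regions at ends of genes without a known start. Both regions that passed the adjusted test were away from starts. Level differed by position as well. The median region rank percentile of member regions open in all 7 libraries was 88.2 at starts and 85.3 at gene ends. It was 60.1 in bodies and 40.6 at far ends. Values near the top of the scale have less room to differ, and the part of level in these shares was not tested.

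The region at the far end of Ndufs3, a core subunit of complex I, showed the greatest difference. It covers chr2:90893923-90894629, 707 bp, and touches the last bases of the gene (chr2:90894627-90904721, minus strand). Its region rank percentile was 18.5, 28.4 and 7.19 in Syn and 50.3, 62.5, 59.8 and 53.8 in Allo. Every Allo library was well above every Syn library. The means were 18.01 ± 10.6 (SD, n = 3) and 56.6 ± 5.53 (SD, n = 4), a difference of 38.6 with SE 5.51 (limma adjusted p = 0.0315). No other protein-coding gene ends within 1 kb of it.

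At the start of Ndufs3, in the region shared with Kbtbd4 and covered by the promoter printed above, the order was the other way. The gene rank percentile, which is set by this region, was 61.6, 80.6 and 71.4 in Syn and 52.9, 59.3, 61.9 and 59.3 in Allo, with Allo 3 just above Syn 1. The difference was -12.8 with SE 4.57 (limma adjusted p = 0.334). By region rank percentile the same region had 91.7 ± 3.22 in Syn (SD, n = 3) and 87.8 ± 1.31 in Allo (SD, n = 4), a difference of -3.89 with SE 2.50 (limma adjusted p = 0.460). Neither passed the threshold. The difference between the regions was not tested.

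The second region that passed lies in the body of Ndufa6, an accessory subunit of complex I, at chr15:82351524-82351869. It had 18.5, 23.8 and 23.3 in Syn and 45.0, 38.2, 38.9 and 36.5 in Allo. Both groups were tight and did not overlap. The means were 21.9 ± 2.92 (SD, n = 3) and 39.7 ± 3.67 (SD, n = 4), a difference of 17.75 with SE 2.98 (limma adjusted p = 0.0418). At the Ndufa6 start the values were 87.5 ± 2.18 in Syn (SD, n = 3) and 88.9 ± 2.89 in Allo (SD, n = 4), a difference of 1.42 with SE 2.64 (limma adjusted p = 0.839).

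**Figure D4:**
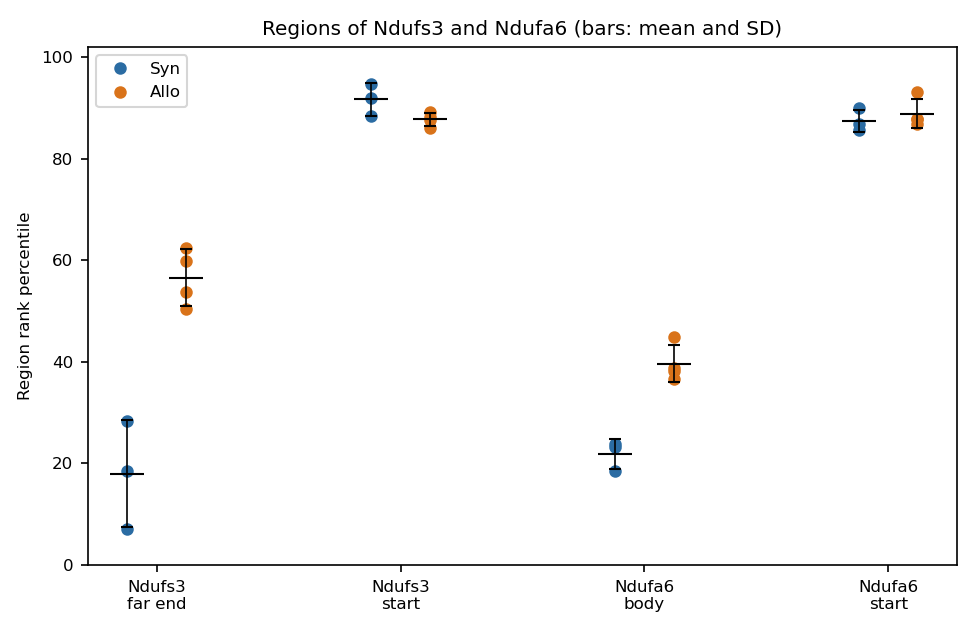
Region rank percentile (vertical axis, 0 to 100) of regions at Ndufs3 and Ndufa6, with 1 point per library, Syn in blue and Allo in orange, and bars for mean and SD. Allo lies above Syn without overlap at the Ndufs3 far end (56.6 against 18.01) and in the Ndufa6 body (39.7 against 21.9), while both starts lie above 85 in every library.

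Both calls were lost when any single library other than Allo 2 was left out. The limma adjusted p at the Ndufs3 far end was 0.110, 0.0527 and 0.0884 without Syn 1, 2 or 3 and 0.0604, 0.0688 and 0.0717 without Allo 1, 3 or 4, and it stayed past the threshold without Allo 2 (0.0305). At the Ndufa6 body it was 0.134, 0.111 and 0.134 without Syn 1, 2 or 3 and 0.0723, 0.0838 and 0.0783 without Allo 1, 3 or 4, and 0.0411 without Allo 2. The Ndufs3 difference stayed between 33.2 and 43.8 points when a library was left out, and the Ndufa6 difference between 15.98 and 18.8. Ranked by fold, the differences were 27.4 (limma adjusted p = 0.0912) and 3.70 (limma adjusted p = 0.684). Without Allo 3 and 4 the adjusted limma p was 0.121 and 0.116.

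Further member regions had an unadjusted p under 0.05 only. In the body of Ndufaf2, an assembly factor gene, Allo values lay below Syn values. At chr13:108152410-108153335 the values were 63.2, 51.4 and 55.9 in Syn and 32.2, 43.0, 37.4 and 36.4 in Allo, with a difference of -19.6 and SE 3.86 (limma adjusted p = 0.0589). A second Ndufaf2 region at chr13:108116324-108117053 had 34.9, 28.4 and 29.3 in Syn and 24.95, 1.46, 0.64 and 18.7 in Allo (limma adjusted p = 0.179). In neither region did the groups overlap. The body region of Cox7b that sets its gene rank had 17.5, 28.9 and 29.6 in Syn and 41.7, 37.9, 46.6 and 30.4 in Allo (difference 13.8, limma adjusted p = 0.190). At Ndufa7, an accessory subunit of complex I, the difference was -7.80 in the body, without overlap of the groups (limma adjusted p = 0.188). It was 10.49 at the start, with overlap (limma adjusted p = 0.257), in a region that also lies within 1 kb of an end of Rps28. In the body of Cox7a2l it was -7.53 without overlap (limma adjusted p = 0.186). A region at an end of Ndufa4l2 that is shared with Stac3 had a difference of 13.8 without overlap (limma adjusted p = 0.228). At the start of Ndufb10 the difference was 17.07, with overlap (limma adjusted p = 0.195).

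Neighbouring pathways were as widely open. In all 7 libraries, peaks were present at 17 of 17 genes of complex II and the citric acid cycle, at 33 of 33 genes for assembly factors and carriers outside the symbols above, at 12 of 12 regulators of mitochondrial genes and at 78 of 78 mitochondrial ribosome genes. For cytosolic ribosome genes it was 87 of 91. The median gene rank percentile was 68.9, 66.7, 79.5, 57.2 and 52.7 in this order, against 60.7 for the respiratory chain. limma called 0 genes of each list. The median difference was 1.05 for complex II and the citric acid cycle, 0.06 for the assembly factors and carriers, -0.96 for the regulators, 1.01 for the mitochondrial ribosome and 2.33 for the cytosolic ribosome.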

How the data were processed

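The authors deposited 1 headerless 10-column peak list per library. Tools named in the submitters' processing notes are MACS2 and MACS3, Bowtie2 and Trim Galore, with mm10 as build and no versions or roles. Peak-calling threshold, read shifting and filters are not given in the sources used here. Of the deposited values, the −log10 q (column 9) ranked peaks within a library, and the fold over background (column 7, a ratio) did so as an alternative. The lowest deposited −log10 q was 1.30. Depth is unknown.

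Peaks on chromosomes 1 to 19 and X were assigned to genes of RefSeq GRCm38.p6. Best values per gene, or per merged region, were ranked and compared between 4 Allo and 3 Syn libraries with limma 3.58.1 in R 4.3.3 (lmFit, eBayes, Benjamini-Hochberg adjustment over all genes or regions). The fit was also run on simulated data with planted shifts, and the outcome is not given here. Python 3.11.15 and pandas 2.3.3 did the rest. Promoter windows were searched on both strands.

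Named genes were those called, those whose groups did not overlap (up to 6 per direction), the 5 highest and 5 lowest, those open in some or no libraries, and a set of isoforms and core subunits. Promoters printed were those of 2 top-ranked genes and of the best ranked per direction, with Cox8a, Cox8b and Ndufs3. Members, lists and rules were chosen with earlier results of these data known. The comparison of regions was added after seeing the data. Protein sequences, which had been planned, were not used here, and the values of 1 member are not reported here. Libraries are numbered as replicates in their labels and were taken as separate pools. Each p-value sets a group difference against the spread between libraries.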

Additional observations from a re-analysis of the deposited data

Results flagged for a closer look

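Among 47 sets of 4 Allo values, 3 contained a library that lay apart from the rest. By chance this happens in about 1 of 20 sets. Atp5e had its lowest gene rank percentile in Allo 1 (95.7), against 99.4 to 99.8 in the other Allo libraries. Atp5l had its highest in Allo 1 (12.4), against 10.5 in each of the others. Uqcrc1 had its lowest in Allo 3 (71.5), against 77.6 to 78.8.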

How the results depend on the processing

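Counts of open members stayed at 85 under all alternatives other than gene ends only (82), and 0 member genes passed limma in each. Over all genes the call count was 0, but 1 with gene ends only, 3 with percentiles of the whole list and 61 with normal scores.

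Members above without overlap, 3 in the reported setting, numbered 1 by column 7 (4.04% of all genes), 6 by the whole list (7.21%), 10 without Allo 3 and 4, 18 without Allo 1 and 2, and 4 to 8 with 1 library left out. Members below, 1 as reported, numbered 2 with 500 bp windows (5.86% of all genes), 2 with gene ends only (4.91%), 5 by column 7 (4.25%), 2 by the whole list (3.48%), 9 and 9 without either Allo pair and 2 to 7 with 1 library left out. Separating member regions, 1 as reported, numbered 0 at a −log10 q of at least 5, 0 with lists cut to equal length, 3 without Allo 3 and 4, 2 without Allo 1 and 2 and 1 to 2 with 1 library left out.
Region calls, 928 over all and 2 at members, were 0 and 0 without Allo 3 and 4, 3141 and 3 without Allo 1 and 2, and 145 and 0 by column 7. With 1 library left out they ranged from 34 to 2462 over all and from 0 to 4 at members.

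Among gene differences, that of Atp5g2, 10.19 as reported, turned to -10.57 when ranked by column 7, and that of Cox6b2, 6.26 as reported, to -0.78 without Allo 3 and 4. The other changes of sign were at genes with reported differences of under 2 points. Ranked by column 7 these were -5.56 (Cox4i1), -2.87 (Cox8a), -2.80 (Atp5b), -1.24 (Cox5a), -0.53 (Ndufa4l2) and -0.29 (Ndufv1). With normal scores they were 0.10 (Atp5e) and -0.030 (Cox8a), in SD units, with gene ends only -0.36 (Atp5b), and by the whole list 0.33 (Cox6a1) and 0.37 (Cox6c). Without Allo 1 and 2 they were -5.69 (Cox4i1), -3.06 (Ndufa4l2), -1.33 (Cox5a), -0.81 (Cox8a), -0.47 (Atp5b) and 0.56 (Atp5e). Without Allo 3 and 4 they were 1.35 (Atp5g1) and 0.86 (Cox6a1). With 1 library left out the ranges that crossed 0 were -1.79 to 2.46 (Atp5b), -0.79 to 0.60 (Atp5e), -2.69 to 0.67 (Atp5g1), -2.65 to 3.71 (Cox4i1), -3.43 to 3.71 (Cox5a), -3.41 to 0.85 (Cox6a1), -4.33 to 1.18 (Cox6c), -1.80 to 2.17 (Cox8a) and -0.98 to 3.35 (Ndufa4l2).

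Replicate numbers 1 to 3 occur in both groups, but same-numbered libraries did not deviate together (correlations 0.044, -0.039 and 0.085). With the replicate number as a block, which leaves out Allo 4, 0 genes and 0 members passed limma (1444 and 3 at an unadjusted p under 0.05), as did 0 regions and 0 member regions. Under the block the differences of Atp5g1 (0.67) and Cox6a1 (0.85) changed sign. Depth is unknown, so no counting error can be given. The cause of these shifts was not tested.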

Other observations

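Cytosolic ribosome genes, which were listed only for comparison, had 11 of 87 genes with every Allo library above every Syn library (12.6%) and 1 with every Allo library below, against 5.65% and 5.92% of all genes. At an unadjusted limma p under 0.05 there were 15 of them (17.2%), against 11.9% of all genes, and 0 after adjustment. Mitochondrial ribosome genes had 4 above and 5 below of 78. Regulators of mitochondrial genes had 1 above and 0 below of 12, and genes of complex II and the citric acid cycle 1 and 0 of 17. The 4 closed cytosolic ribosome genes were Rpl10l, Rpl31-ps12, Rpl39l and Rps27rt.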
